A study of Arabidopsis thaliana with 8 samples.

Results

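The double mutant dd-2 (dek3-2 dek4-2) was compared with wild type Col-0 in whole Arabidopsis thaliana seedlings at 7 days of age. The comparison used 4 of the 8 RNA-seq libraries of the study, 2 of dd-2 and 2 of Col-0. The 4 remaining libraries, 2 each of the single mutants dek3-2 and dek4-2, entered the estimate of the spread and are given beside the results as a description. All groups were grown on plates under long days with no treatment named. The labels call the libraries of a group biological replicates without saying how plants were pooled, so p-values measure the spread between these libraries. The labels do not describe the molecular lesion of either allele. Of 33557 genes in the files, 19074 had a mean of at least 1 FPKM (fragments per kilobase of gene length after scaling for depth) over the 4 libraries and were tested. Genes were described when both dd-2 libraries lay beyond both Col-0 libraries, and loci spanning under 300 bp were set apart.

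DEK proteins are chromatin proteins with a DNA-binding SAP domain that bind histones and influence how tightly chromatin is packed, and Arabidopsis DEK3 is known for roles in chromatin structure, flowering and stress tolerance. A seedling at this age combines green cotyledons, first leaves, a hypocotyl and a growing root. In such bulk libraries fewer cells of a type cannot be told apart from less RNA per cell.

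Replicates correlated with r of 0.984 in dd-2 and 0.984 in Col-0 across genes, on the log2(FPKM + 1) scale. From the spacing of low values, depth relative to Col-0 replicate 1 was 0.905 and 0.791 in the dd-2 libraries, against 1.0 and 1.12 in the Col-0 libraries, and its part in the results was not tested. The labelled tissue matched its markers, with abundant leaf markers, and with flower markers at 2.18 and 2.25 FPKM in sum in dd-2, against 2.67 and 2.15 FPKM in Col-0. The 11 genes of seed storage proteins and oil bodies summed to 4.15 and 127.0 FPKM in dd-2, against 6.29 and 7.85 FPKM in Col-0, so dd-2 replicate 2 held more seed transcripts than the other 3 libraries.

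DEK3 (AT4G26630, chromosome 4, 13430527 to 13435770) stood at 19.9 and 17.5 FPKM in the dd-2 libraries, against 48.3 and 70.2 FPKM in the Col-0 libraries. DEK4 (AT5G55660, chromosome 5, 22538613 to 22543474) stood at 16.3 and 15.4 FPKM in dd-2, against 23.7 and 35.2 FPKM in Col-0. For both mutated genes the dd-2 libraries lay below both Col-0 libraries, the direction the genotype labels imply. The wild-type libraries differed widely between themselves, and neither gene passed the test over all genes (limma adjusted p = 0.0771 for DEK3 and 0.226 for DEK4). The other members of the family, DEK1 (AT3G48710) and DEK2 (AT5G63550), had log2 differences of 0.32 and 0.17, and with median-of-ratios scaling their dd-2 and Col-0 libraries overlapped. Whether the reads of DEK3 and DEK4 lie within the disrupted part is not given.

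Across the tested genes, both dd-2 libraries lay above both Col-0 libraries for 7260 genes (38.1%) and below them for 2904 genes (15.2%). Most of these separated genes differed by less than 1.5-fold. The median log2 difference over all tested genes, rises and falls together, was 0.08. At a difference of at least 1.5-fold, 479 separated genes (2.51%) were higher in dd-2 and 97 (0.509%) were lower. The excess of higher genes depended on the scaling. With median-of-ratios scaling the median log2 difference was 0.00, and 4334 genes (22.8%) were higher and 4879 (25.6%) lower, of which 328 (1.72%) and 160 (0.841%) reached 1.5-fold. Without chloroplast and mitochondrial genes 41.1% were higher and 12.8% lower, and 2.78% and 0.437% by 1.5-fold. For lists and families, the counts under median-of-ratios scaling are given beside the others or in brackets. All are to be read beside the shares of all tested genes given here. The lists were chosen with earlier results of these data known, so their counts are a description.

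By the test over all genes (limma, Benjamini-Hochberg adjusted p below 0.05), 56 genes differed, 32 higher in dd-2 (0.168% of those tested) and 24 lower (0.126%). Of these, 27 differed by 2-fold or more, and an unadjusted p below 0.05 was found for 3559 genes. With median-of-ratios scaling 22 were higher (0.116%) and 31 lower (0.163%), and 74 (0.389%) and 36 (0.189%) without chloroplast and mitochondrial genes. The count was 23 without dd-2 replicate 1, 38 without dd-2 replicate 2, 16 without Col-0 replicate 1 and 29 without Col-0 replicate 2. In each of these 4 fits 9 of the 56 calls held, those of MRD1, AT4G08093, BSU1, AT5G11330, AT5G60630, AT5G39520, AT2G36854, PSBL and AT3G49460. Another 33 calls held in none of the 4 fits, which have fewer libraries. Of the 56 calls, 9 lie on loci that the files merge over several genes.

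**Figure D1:**
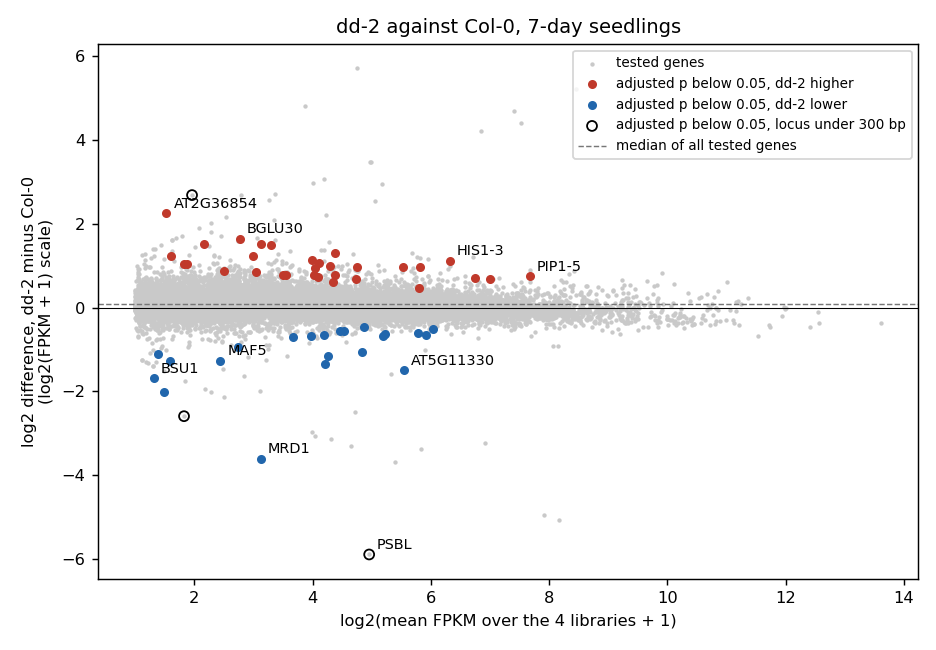
Each point is a tested gene, with its mean level over the 2 dd-2 and 2 Col-0 libraries on the horizontal axis and its log2 difference, dd-2 minus Col-0, on the vertical axis, both on the log2(FPKM + 1) scale. Filled red (dd-2 higher) and blue (dd-2 lower) points passed the test at an adjusted p below 0.05, and the 3 open circles are calls on loci under 300 bp. Most points lie near the dashed median of 0.08, and MRD1 at -3.61 is the lowest call on a longer locus.

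The 3 largest falls on loci of 300 bp or more were in genes that were nearly silent in dd-2. MRD1 (AT1G53480, named for its lower level in a methionine-overaccumulating mutant; chromosome 1, 19963047 to 19969757) stood at 0.180 and 0.464 FPKM in dd-2, against 16.0 and 14.3 FPKM in Col-0, a log2 difference of -3.61 with SE 0.14 (limma adjusted p = 3.07e-05). The same was seen in dek3-2, at 0.261 and 0.297 FPKM, while dek4-2 stood above Col-0 at 32.7 and 30.2 FPKM. HEI10 (AT1G53490), an E3 ligase of meiotic crossing-over, lies on the same merged locus in the files, and its values followed MRD1 across genotypes, with 0.640 and 0.553 FPKM in dek3-2 and 7.38 and 6.74 FPKM in dek4-2. It stood at 0.713 and 0.626 FPKM in dd-2, against 2.58 and 2.58 FPKM in Col-0, a log2 difference of -1.10 (limma adjusted p = 0.0189, up to 0.106 with a library left out).

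BSU1 (AT1G03445, chromosome 1, 854410 to 859701), a phosphatase of brassinosteroid signalling, stood at 0.113 and 0.242 FPKM in dd-2, against 2.66 and 2.94 FPKM in Col-0 (log2 difference -1.69, SE 0.15, limma adjusted p = 0.00568). The transcribed pseudogene AT4G08093 stood at 0.113 and 0.0967 FPKM in dd-2, against 3.59 and 3.40 FPKM in Col-0 (log2 difference -2.02, adjusted p = 0.00268). BSU1 stood at 0.250 and 0.130 FPKM in dek3-2 and 0.0717 and 0.0769 FPKM in dek4-2. Col-0 was thus the only genotype in which BSU1 and AT4G08093 reached 1 FPKM. AT5G11330, annotated as an FAD/NAD(P)-binding oxidoreductase, stood at 25.8 and 20.9 FPKM in dd-2, against 66.9 and 68.6 FPKM in Col-0 (log2 difference -1.50, adjusted p = 0.00193). It was close to dek4-2, at 19.2 and 22.5 FPKM, and not dek3-2, at 71.4 and 67.5 FPKM.

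The next falls were graded. In each of the 9 genes that follow, both dd-2 libraries lay below all 6 other libraries. The chitinase-family gene AT2G43620 stood at 9.15 and 9.77 FPKM in dd-2, against 27.2 and 24.3 FPKM in Col-0 (limma adjusted p = 0.0185). The floral repressor MAF5 stood at 1.94 and 2.42 FPKM in dd-2, with 4.27 and 5.78 FPKM in dek3-2, 3.89 and 3.88 FPKM in dek4-2 and 6.25 and 7.04 FPKM in Col-0 (log2 difference dd-2 minus Col-0 -1.27, adjusted p = 0.0227). Falls were also called for the pseudogene AT3G21010 (log2 difference -1.29), AT3G28270, a putative transmembrane protein (-1.16), and the cystatin-like gene AT5G05060 (-1.06). Smaller ones were in PVA14, a vesicle-associated protein (-0.94), CRL2, a Rossmann-fold oxidoreductase (-0.69), and MAP1C, an organellar methionine aminopeptidase (-0.71). TIC32, linked to protein import at the inner chloroplast membrane, stood at 27.4 and 27.0 FPKM in dd-2, against 43.2 and 44.6 FPKM in Col-0 (-0.67). With a library left out, the calls of these 9 were lost in all 4 fits, except AT3G28270 (lost in 1 fit, adjusted p up to 0.0534) and AT5G05060 (lost in 3 fits, up to 0.0859). The thioesterase-family gene AT5G10160, on a merged locus, had a log2 difference of -0.67 (adjusted p = 0.0330, up to 0.160 with a library left out).

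MAF5 belongs to the clade of FLC, the main repressor of flowering before cold. Of the 6 clade members, 3 were lower and 2 higher in dd-2 (4 and 1 with median-of-ratios scaling). FLC stood at 3.78 and 3.39 FPKM in dd-2, against 8.40 and 10.5 FPKM in Col-0 (log2 difference -1.18, limma adjusted p = 0.0543), and MAF4 at 2.73 and 2.73 FPKM in dd-2, against 5.01 and 5.93 FPKM in Col-0. AGL31, also known as MAF2, stood at 40.1 and 37.0 FPKM in dd-2, against 30.3 and 32.1 FPKM in Col-0. The clade members thus differed in direction.

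Among the rises, AT2G36854 (chromosome 2, 15454697 to 15469904), an uncharacterised gene on a merged locus of 2 genes, stood at 3.46 and 4.06 FPKM in dd-2 and was at or next to 0 in the other 6 libraries. Its fitted log2 difference of 2.25 (adjusted p = 0.00108) depends on the pseudocount. AT5G60630, also uncharacterised and on a merged locus of 2 genes, stood at 12.1 and 11.8 FPKM in dd-2, 10.5 and 9.60 FPKM in dek3-2, 4.51 and 5.25 FPKM in dek4-2 and 3.33 and 3.68 FPKM in Col-0. Its dd-2 minus Col-0 log2 difference was 1.52 with SE 0.11 (limma adjusted p = 0.00193). AT5G39520, annotated only by a domain of unknown function and on a merged locus, stood at 21.0 and 20.7 FPKM in dd-2, against 9.07 and 8.99 FPKM in Col-0 (log2 difference 1.12, adjusted p = 0.00193).

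BGLU30 (AT3G60140), a beta-glucosidase gene also known as DIN2 for its induction in darkness, stood at 10.3 and 8.34 FPKM in dd-2, against 2.13 and 2.45 FPKM in Col-0, a rise of 4.08-fold in mean FPKM (log2 difference 1.65, adjusted p = 0.0227, up to 0.174 with a library left out). HIS1-3 (AT2G18050), a linker histone induced by drought and abscisic acid, stood at 121 and 95.8 FPKM in dd-2, against 49.2 and 48.8 FPKM in Col-0 (log2 difference 1.12, adjusted p = 0.0164, up to 0.0740 with a library left out). The single mutants lay between, at 68.9 and 56.6 FPKM in dek3-2 and 67.5 and 65.9 FPKM in dek4-2. CKX1 (AT2G41510), which degrades cytokinin, stood at 3.84 and 4.1 FPKM in dd-2, against 1.44 and 1.37 FPKM in Col-0 (log2 difference 1.05, adjusted p = 0.0214, up to 0.123 with a library left out). HSFB3, a heat shock transcription factor, had a log2 difference of 1.23 (adjusted p = 0.0481, up to 0.261).

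The next rises include products of the wall and membrane by annotation. ENODL1, an early nodulin-like protein, stood at 16.2 and 10.9 FPKM in dd-2, against 3.77 and 4.38 FPKM in Col-0 (log2 difference 1.49). PME16, a pectin methylesterase, stood at 11.4 and 9.11 FPKM in dd-2, against 3.62 and 3.84 FPKM in Col-0 (log2 difference 1.24). The lipid-transfer-like gene AT3G53980 had a log2 difference of 1.31, the glycine-rich protein gene GRP-5 one of 0.98, and AT5G44440, a berberine-bridge-enzyme-like oxidase, one of 1.52. AT2G44500, an O-fucosyltransferase-family gene, rose by 1.00 and AT1G29025, a calcium-binding EF-hand gene, by 1.04 on the log2 scale. The adjusted p in these fits ran from 0.0131 for AT5G44440 to 0.0468 for AT3G53980, and each of these calls was lost in at least 2 of the 4 fits that left out a library. AT1G19530, which the reference names after a DNA polymerase subunit, rose by 1.07 (adjusted p = 0.0141), and its call was lost without dd-2 replicate 1 or Col-0 replicate 1 (adjusted p up to 0.106).

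Smaller calls on longer loci, named after their values were seen, follow, and each call named in this paragraph was lost in at least 3 of the 4 fits that left out a library. Rises were called for the amino-acid-transporter family gene UMAMIT20 (log2 difference 0.95), the nitrate transporter gene NPF7.3 (0.78), the serine carboxypeptidase-like genes SCPL11 (0.73) and SCPL13 (0.61), and GLTP2, a glycolipid transfer protein (0.85). Others were AT3G25290 of an auxin-responsive family (0.96), CYB561C (0.79), the glutaredoxin gene GRXC6 (0.68) and AT2G38790 (0.77). NPF7.3, which loads nitrate into the root xylem, stood at 20.1 and 18.9 FPKM in dd-2, against 11.6 and 10.3 FPKM in Col-0. Falls were called for LSF2, a starch phosphatase (-0.56), AT4G28740, annotated as a photosystem II accumulation factor (-0.52), cPT4, a prenyltransferase (-0.61), and AT2G48020, a sugar-transporter-like gene (-0.65). AT5G62840, AT1G26220 and AT3G10840 had log2 differences of -0.57, -0.62 and -0.46.

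**Figure D2:**
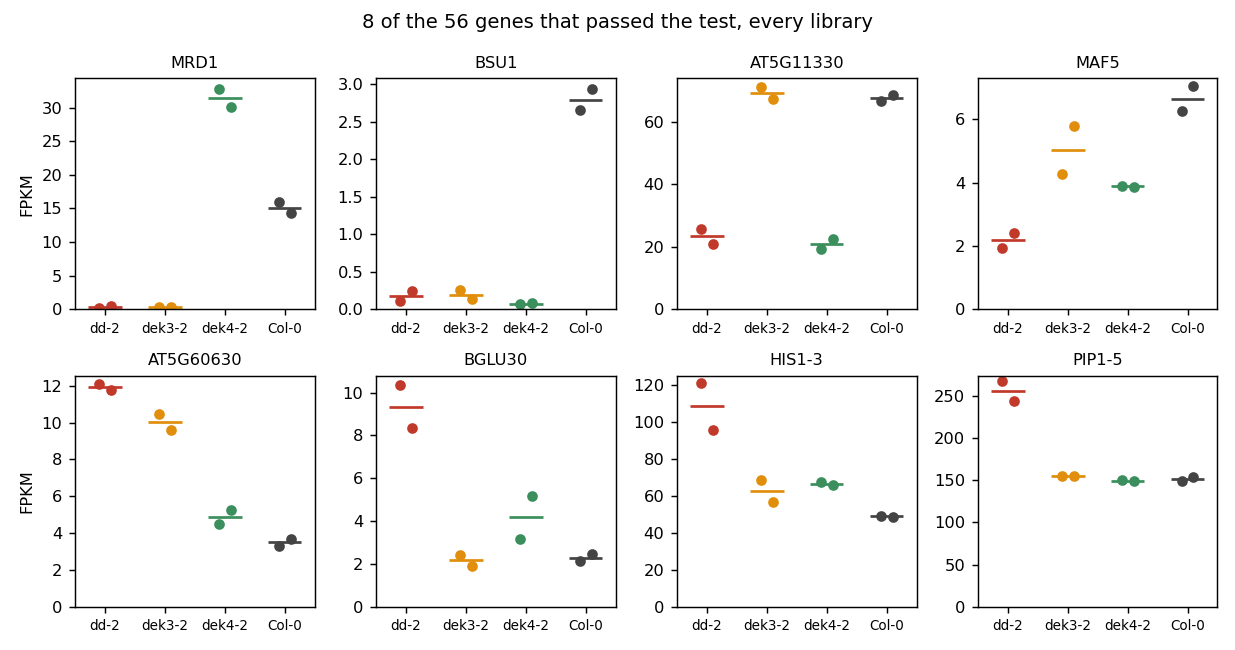
FPKM of 8 genes that passed the test, with 1 point per library, short bars at the mean of 2 libraries, and the genotypes in the order dd-2, dek3-2, dek4-2 and Col-0; each panel has its own axis from 0. BSU1 is near 0 in all 3 mutants, MRD1 in dd-2 and dek3-2 alone, AT5G11330 is low in dd-2 and dek4-2, and PIP1-5 is high in dd-2 alone.

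The calls were also set beside the single mutants, as a description. Both dd-2 libraries lay above all 6 other libraries for 31 of the 32 rises and below all 6 for 16 of the 24 falls. Of all genes separated from Col-0, 45.3% of the higher lay above all 6 and 47.6% of the lower lay below all 6. The calls differ by at least 1.37-fold, while 479 of 7260 higher and 97 of 2904 lower separated genes reached 1.5-fold. Genes chosen for a large difference from Col-0 lie beyond other libraries more easily. The shares of separated genes here and below are thus not a matched background. PIP1-5 (AT4G23400), a plasma membrane aquaporin, stood at 267 and 243 FPKM in dd-2, with 155 and 155 FPKM in dek3-2, 149.6 and 148 FPKM in dek4-2 and 149 and 154 FPKM in Col-0 (log2 difference dd-2 minus Col-0 0.75, adjusted p = 0.0113). The call was lost without dd-2 replicate 1 (limma adjusted p = 0.0587), without Col-0 replicate 1 (0.055) and in the fit on the 4 libraries alone (0.0756). Both single mutants lay near Col-0. Both dek3-2 libraries lay above both Col-0 libraries for 24 of the rises, and both dek4-2 libraries for 23, against 35.0% and 22.5% of the separated higher genes. Both dek3-2 libraries lay below both Col-0 libraries for 22 of the falls, and both dek4-2 libraries for 21, against 35.5% and 35.8% of the separated lower genes. The mutants share the 2 Col-0 libraries, so these counts are not independent.

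ER bodies are compartments of the endoplasmic reticulum in Arabidopsis and its relatives that store the beta-glucosidase PYK10, which releases defence compounds when cells are damaged and is most abundant in roots. Of the 12 listed genes, 10 lay above Col-0 in both dd-2 libraries (83.3%, against 38.1% of all tested genes), none lay below, and 10 were also counted under median-of-ratios scaling. The list was chosen with earlier results of these data known and includes the calls JAL22 and JAL35, so its share is a description. The median log2 difference was 0.54. PYK10 (BGLU23, AT3G09260) stood at 1439 and 1197 FPKM in dd-2, against 913 and 870.4 FPKM in Col-0 (log2 difference 0.56, adjusted p = 0.0695). The jacalin-related lectins JAL22, at 84.3 and 64.0 FPKM in dd-2, against 35.6 and 39.0 FPKM in Col-0, and JAL35, at 139.9 and 124 FPKM in dd-2, against 76.9 and 83.3 FPKM in Col-0, rose (limma adjusted p = 0.0447 and 0.0447). Without dd-2 replicate 1 these were 0.183 and 0.231. The 2 members that overlapped were the beta-glucosidases BGLU21 and BGLU22.

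NAI2, a protein needed to form ER bodies, stood at 75.6 and 76.7 FPKM in dd-2, against 36.8 and 55.2 FPKM in Col-0, and did not pass (adjusted p = 0.241). NAI1, the transcription factor of the pathway, had a log2 difference of 0.26. PBP2, a lectin outside the list, stood at 26.7 and 24.3 FPKM in dd-2, against 13.9 and 14.8 FPKM in Col-0, and rose (log2 difference 0.79, adjusted p = 0.0141, up to 0.106 with a library left out). NSP1, a nitrile specifier protein encoded near JAL35 on chromosome 3, rose by 0.69 (adjusted p = 0.0447, up to 0.231). Of the whole jacalin-related family, 12 of 23 tested members were higher (52.2%, against 38.1% of all tested genes) and 2 lower. With median-of-ratios scaling 9 were higher (39.1%, against 22.8%) and 2 lower. BGLU15, a beta-glucosidase, stood at 6.63 and 6.07 FPKM in dd-2, against 3.27 and 2.74 FPKM in Col-0, and rose (log2 difference 0.88, adjusted p = 0.0468, up to 0.261).

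Root barrier genes were higher in dd-2 as counts, though none passed the test over all genes. Suberin is a waxy polymer and the Casparian strip a lignin band, and both seal the endodermis of the root. Of 12 suberin genes, 9 were higher (75.0%, against 38.1% of all tested genes) and none lower, with a median of 0.54. With median-of-ratios scaling 8 were higher (66.7%, against 22.8%) and none lower. FAR1, a fatty acyl reductase of suberin, stood at 26.3 and 25.7 FPKM in dd-2, against 12.2 and 13.6 FPKM in Col-0 (log2 difference 0.96, adjusted p = 0.0582). AT1G04220, a ketoacyl-CoA synthase that elongates fatty acids, had a log2 difference of 1.05 and the hydroxylase CYP86B1 one of 0.72. Of 11 Casparian strip genes, 8 were higher (72.7%, against 38.1% of all tested genes) and none lower, with a median of 0.50. With median-of-ratios scaling 7 were higher (63.6%, against 22.8%) and 1 lower. The strip protein CASP1 stood at 11.4 and 9.97 FPKM in dd-2, against 7.12 and 4.94 FPKM in Col-0, and PER64, a peroxidase of lignin at the strip, at 6.22 and 5.90 FPKM in dd-2, against 3.45 and 2.89 FPKM in Col-0. SHR and SCR, the transcription factors that specify the endodermis, had log2 differences of 0.07 and 0.02, with overlapping libraries.

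The 5 root markers summed to 1463 and 1221 FPKM in dd-2, against 931 and 882 FPKM in Col-0, most of it PYK10. The 3 leaf markers summed to 15794 and 15411 FPKM in dd-2, against 21761 and 19311 FPKM in Col-0. Of the root markers, CASP1, PER64 and PYK10 were higher in dd-2, EXPA7 of root hairs overlapped, and IRT1, an iron transporter, was below the filter at 0.867 and 0.802 FPKM in dd-2, against 1.13 and 0.915 FPKM in Col-0. Of the leaf markers, RBCS-1A and RBCS-3B were lower and LHCB1.2 was higher. The 3 xylem markers summed to 10.1 and 11.9 FPKM in dd-2, against 9.17 and 9.31 FPKM in Col-0, and the 2 shoot meristem markers to 7.45 and 7.03 FPKM in dd-2, against 4.91 and 5.78 FPKM in Col-0. The sums for phloem and guard cells overlapped. PYK10, CASP1, PER64, RBCS-1A and RBCS-3B are themselves members of the ER body, Casparian strip and Calvin cycle lists, so their values are not separate from those counts. The part of tissue composition in the list counts was not tested. Of 9 root hair genes, 3 were higher (33.3%, against 38.1% of all tested genes) and none lower (2 and none with median-of-ratios scaling), with EXPA7 at 5.42 and 6.79 FPKM in dd-2, against 5.68 and 2.88 FPKM in Col-0.

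Genes of carbon fixation lay the other way. The Calvin cycle fixes carbon dioxide in the chloroplast stroma through Rubisco and the enzymes that regenerate its substrate. Of 19 nuclear genes, 18 lay below Col-0 in both dd-2 libraries (94.7%, against 15.2% of all tested genes), with a median log2 difference of -0.37, and 18 did so under median-of-ratios scaling. The exception was CP12-3, at 13.4 and 15.3 FPKM in dd-2, against 12 and 14.0 FPKM in Col-0. The plastid aldolase FBA1 stood at 469 and 452 FPKM in dd-2, against 795 and 639.5 FPKM in Col-0 (log2 difference -0.63), and it had the lowest adjusted p of the list (0.0687). Rubisco activase RCA stood at 2963 and 2795 FPKM in dd-2, against 4337 and 3631 FPKM in Col-0, and the dehydrogenase GAPB at 1042 and 1002 FPKM in dd-2, against 1591 and 1316 FPKM in Col-0. RBCS-3B, a small-subunit gene of Rubisco with near-identical copies that may share reads, stood at 4566 and 4596 FPKM in dd-2, against 6538 and 6049 FPKM in Col-0. No member passed the test over all genes.

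Chlorophyll synthesis genes were lower by less. Of 14, 10 were lower (71.4%, against 15.2% of all tested genes) and 1 higher, with a median of -0.14. With median-of-ratios scaling 12 were lower (85.7%, against 25.6%) and 1 higher. The methyltransferase CHLM stood at 219.6 and 225 FPKM in dd-2, against 291 and 251 FPKM in Col-0, and CAO, which makes chlorophyll b, was the higher one, at 21.9 and 20.4 FPKM in dd-2, against 17.0 and 18.7 FPKM in Col-0. Light-harvesting genes split, with 7 of 21 higher and 7 lower (33.3% each, against 38.1% and 15.2% of all tested genes). With median-of-ratios scaling 6 were higher (28.6%, against 22.8%) and 9 lower (42.9%, against 25.6%). Some light-harvesting genes also have near-identical copies. LHCB2.2 stood at 24.3 and 25.9 FPKM in dd-2, against 12.9 and 15 FPKM in Col-0, and LHCB4.3 at 88.4 and 94.6 FPKM in dd-2, against 138 and 120.5 FPKM in Col-0. Of 16 nitrate genes, 8 were lower and none higher (9 and none with median-of-ratios scaling). Nitrate reductase NIA1 stood at 149 and 129 FPKM in dd-2, against 214 and 182 FPKM in Col-0 (log2 difference -0.51, adjusted p = 0.151).

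**Figure D3:**
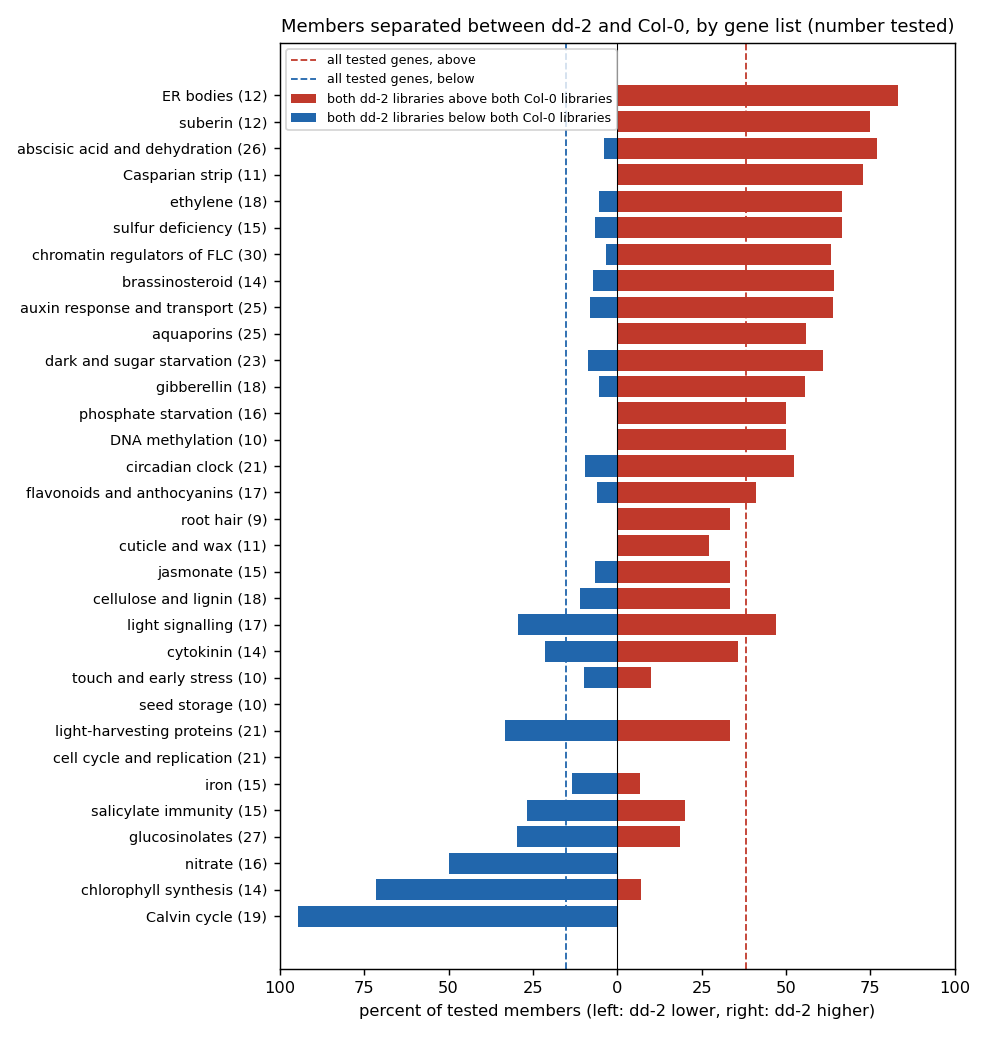
For each list fixed by locus code with at least 9 tested members (number tested in brackets), the red bar is the percent of members with both dd-2 libraries above both Col-0 libraries and the blue bar the percent below. Dashed lines mark the shares of all tested genes, 38.1% and 15.2%. ER bodies reach 83.3% higher, and the Calvin cycle 94.7% lower. The lists were chosen with earlier results of these data known.

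Abscisic acid controls responses to water shortage, which include dehydrins that protect cell structures. Of 26 tested genes of abscisic acid and dehydration, 20 were higher in dd-2 (76.9%, against 38.1% of all tested genes) and 1 lower, with a median of 0.34. With median-of-ratios scaling 17 of 25 were higher (68.0%, against 22.8%) and 1 lower. HIS1-3 was the 1 that passed over all genes. The stress gene RD29A (LTI78) stood at 18.6 and 12.8 FPKM in dd-2, against 5.39 and 9.45 FPKM in Col-0 (log2 difference 1.01, adjusted p = 0.231). NCED3, which encodes a limiting step of abscisic acid synthesis, stood at 4.36 and 3.89 FPKM in dd-2, against 1.81 and 1.90 FPKM in Col-0 (log2 difference 0.84, adjusted p = 0.0740). AFP1, a repressor of abscisic acid signalling, stood at 8.22 and 7.21 FPKM in dd-2, against 3.94 and 3.89 FPKM in Col-0 (adjusted p = 0.0582). The dehydrin ERD14 stood at 399 and 332 FPKM in dd-2, against 236 and 237 FPKM in Col-0. ABF3, a transcription factor of the abscisic acid response, stood at 28.3 and 22.6 FPKM in dd-2, against 19.2 and 17.2 FPKM in Col-0. The lower member was the dehydrin RAB18, at 47.5 and 47.7 FPKM in dd-2, against 50.7 and 58.8 FPKM in Col-0.

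The core of the abscisic acid response element, ACGTG, is the site of the ABF transcription factors, and it was searched on both strands in the 250 bases before each gene's start in the RefSeq annotation (build TAIR10.1). It was present for 15 of the 26 tested list members (57.7%). The shares were 23.6% of 18494 tested genes and 22.9% of all 27443 protein-coding genes. The list was fixed from textbook knowledge of this response, so its share describes the list and not dd-2. Separated members were not compared with the rest. The windows of HIS1-3, the called member, and of the 3 separated members with the largest differences among those that hold the core are shown 5′ to 3′ on the gene's strand, with the core in capitals (CACGT where it lies on the opposite strand). They lie at chr2:7845673-7845922 (plus strand), chr1:26038655-26038904 (plus), chr1:28587932-28588181 (minus) and chr4:16295084-16295333 (plus).
HIS1-3: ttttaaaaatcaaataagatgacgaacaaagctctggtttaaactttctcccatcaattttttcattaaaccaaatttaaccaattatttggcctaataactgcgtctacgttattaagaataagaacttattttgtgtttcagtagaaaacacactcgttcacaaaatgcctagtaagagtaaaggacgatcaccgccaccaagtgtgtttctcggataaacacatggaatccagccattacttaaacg
AFP1: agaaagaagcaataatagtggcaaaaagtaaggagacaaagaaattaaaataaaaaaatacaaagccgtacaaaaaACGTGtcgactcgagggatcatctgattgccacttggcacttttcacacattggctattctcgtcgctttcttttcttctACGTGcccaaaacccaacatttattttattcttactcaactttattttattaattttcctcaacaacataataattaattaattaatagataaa
ERD14: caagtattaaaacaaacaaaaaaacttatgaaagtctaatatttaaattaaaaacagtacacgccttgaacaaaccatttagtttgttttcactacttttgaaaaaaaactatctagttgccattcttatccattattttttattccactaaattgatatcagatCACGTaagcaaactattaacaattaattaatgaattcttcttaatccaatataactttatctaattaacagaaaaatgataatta
ABF3: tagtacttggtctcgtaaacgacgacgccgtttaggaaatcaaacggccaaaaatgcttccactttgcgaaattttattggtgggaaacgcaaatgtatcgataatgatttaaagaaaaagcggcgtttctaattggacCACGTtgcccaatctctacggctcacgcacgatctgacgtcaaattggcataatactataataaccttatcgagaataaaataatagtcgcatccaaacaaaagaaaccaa
AFP1 holds 2 matches, ERD14 and ABF3 hold 1 each, and the window of HIS1-3 holds none. RD29A and NCED3, separated with larger differences than AFP1, are not shown because their windows also hold none. A match describes the letters and not a bound site. Of the other motifs searched, the G-box CACGTG, which contains ACGTG, was present for 7.69% of the list and 7.42% of tested genes. The I-box core GATAAG was present for 26.3% of Calvin cycle genes (5 of 19) and 12.3% of tested genes. It was not particular to that list, at 27.3% of Casparian strip genes (3 of 11). The sulfur response core GAGAC was present for 20.0% of sulfur deficiency genes and 25.2% of tested genes.

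Genes induced by sulfur shortage were higher in dd-2 with a wide spread in Col-0. Of 15, 10 were higher (66.7%, against 38.1% of all tested genes) and 1 lower, with a median of 0.43. With median-of-ratios scaling 9 were higher (60.0%, against 22.8%) and 2 lower. BGLU28, a beta-glucosidase that breaks down glucosinolates under sulfur shortage, stood at 72.5 and 68.3 FPKM in dd-2, against 18.2 and 42.5 FPKM in Col-0. SDI1, which represses glucosinolate synthesis, stood at 109.9 and 97.7 FPKM in dd-2, against 36.7 and 73.0 FPKM in Col-0, and LSU1, a marker of low sulfur, at 280.2 and 244 FPKM in dd-2, against 107 and 185 FPKM in Col-0. Col-0 replicate 2 lay far above replicate 1 in all 3 genes, and none passed (adjusted p = 0.262, 0.286 and 0.216). Of 16 phosphate starvation genes, 8 were higher and none lower (6 and 1 with median-of-ratios scaling), with PHO1, a phosphate exporter of the root, at 27.4 and 29.4 FPKM in dd-2, against 17.5 and 17.7 FPKM in Col-0.

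Of 25 auxin genes, 16 were higher (64.0%, against 38.1% of all tested genes) and 2 lower. With median-of-ratios scaling 13 were higher (52.0%, against 22.8%) and 2 lower. IAA17, an auxin signalling repressor, rose. It stood at 64.6 and 62.5 FPKM in dd-2, against 46.6 and 45.6 FPKM in Col-0 (log2 difference 0.45, adjusted p = 0.0447, up to 0.231 with a library left out). GH3.5, which conjugates auxin, stood at 35.1 and 35.2 FPKM in dd-2, against 22.5 and 20.9 FPKM in Col-0. Of 18 ethylene genes 12 were higher and 1 lower (5 and 1 with median-of-ratios scaling), of 14 brassinosteroid genes 9 and 1 (6 and 2), and of 18 gibberellin genes 10 and 1 (7 and 3). The higher shares were 66.7%, 64.3% and 55.6%, and 27.8%, 42.9% and 38.9% with median-of-ratios scaling. The ethylene share under median-of-ratios scaling, 27.8%, lay near the 22.8% of all tested genes. Among 17 light-signalling genes, 8 were higher (47.1%) and 5 lower (29.4%), with 6 and 6 under median-of-ratios scaling (35.3% each). PIF4 and HFR1, an activator and an inhibitor of shade-induced growth, had the largest differences. PIF4 stood at 7.43 and 7.27 FPKM in dd-2, against 3.16 and 3.59 FPKM in Col-0 (log2 difference 0.93, adjusted p = 0.0582), and HFR1 at 8.02 and 8.85 FPKM in dd-2, against 3.71 and 4.54 FPKM in Col-0 (adjusted p = 0.0582). The photoreceptors PHYB and CRY1 had log2 differences of -0.07 and -0.02.

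Of 23 genes induced by darkness or sugar starvation, 14 were higher (60.9%, against 38.1% of all tested genes) and 2 lower. With median-of-ratios scaling 11 were higher (47.8%, against 22.8%) and 4 lower. BGLU30 was the 1 call. ASN1, an asparagine synthetase also known as DIN6, stood at 53.8 and 58.5 FPKM in dd-2, against 30.9 and 45.7 FPKM in Col-0 (adjusted p = 0.204). Of 25 aquaporin genes, 14 were higher and none lower (9 and 3 with median-of-ratios scaling). Besides PIP1-5, the tonoplast aquaporin TIP2-3 stood at 6.47 and 5.75 FPKM in dd-2, against 2.56 and 1.51 FPKM in Col-0 (adjusted p = 0.0582). In the flavonoid pathway, 7 of 17 genes were higher and 1 lower (6 and 2 with median-of-ratios scaling), a share of 41.2% near the 38.1% of all tested genes. Dihydroflavonol reductase (DFRA) stood at 19.1 and 10.2 FPKM in dd-2, against 3.46 and 4.31 FPKM in Col-0, with dd-2 replicate 1 well above replicate 2.

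**Figure D4:**
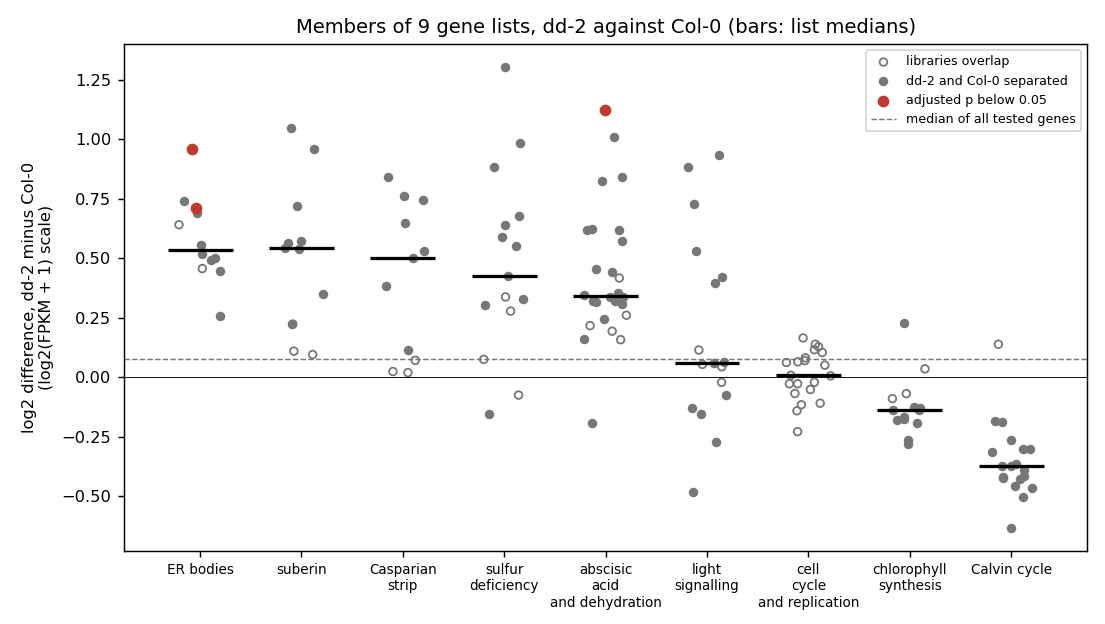
Each point is a tested member of 1 of 9 gene lists, at its log2 difference dd-2 minus Col-0 on the log2(FPKM + 1) scale; black bars are list medians, filled points are genes whose dd-2 and Col-0 libraries do not overlap, and red points passed the test. Medians run from 0.54 in the ER body and suberin lists to -0.37 in the Calvin cycle, and cell cycle members lie around 0.

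Families matched by annotation gave the wall and growth genes. Of 50 class III peroxidases, secreted enzymes of the wall, 27 were higher (54.0%) and 3 lower. With median-of-ratios scaling 21 were higher (42.0%) and 3 lower. By at least 1.5-fold, 13 were higher (26.0%, against 2.51% of all tested genes). PER53 stood at 7.57 and 4.15 FPKM in dd-2, against 2.44 and 2.08 FPKM in Col-0 (log2 difference 1.03, adjusted p = 0.0867). Of 27 xyloglucan endotransglucosylases, which cut and rejoin wall polymers, 12 were higher and none lower (7 and 2 with median-of-ratios scaling), with a median of 0.47. The higher share was 44.4%, against 38.1% of all tested genes, and 25.9% against 22.8% with median-of-ratios scaling. XTH24 stood at 816 and 643 FPKM in dd-2, against 374 and 567 FPKM in Col-0. Of 46 extensin and proline-rich protein genes, 20 were higher and 3 lower (14 and 6), a higher share of 43.5%. Of 57 SAUR genes, small auxin-induced RNAs of growing tissue, 29 were higher (50.9%) and 3 lower. With median-of-ratios scaling 26 were higher (46.4%) and 4 lower. Of the 29, 2 span less than 300 bp, and SAUR23 stood at 4.04 and 3.6 FPKM in dd-2, against 2.22 and 1.46 FPKM in Col-0. MYB61, a transcription factor of stomata and cell walls, stood at 7.48 and 4.78 FPKM in dd-2, against 2.1 and 1.88 FPKM in Col-0 (adjusted p = 0.0582).

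None of 21 cell cycle and replication genes was separated (2 lower with median-of-ratios scaling), with a median of 0.01, and members ran from -0.23 to 0.17. Of 287 cytosolic ribosomal protein genes, 22 were higher and 60 lower (20.9%, against 15.2% of all tested genes) with a median of -0.10. With median-of-ratios scaling 6 were higher and 153 lower (53.5%, against 25.6%). Genes matched as pentatricopeptide repeat proteins, 178 of 468 higher (38.0%) and 55 lower, lay at the 38.1% of all tested genes (113 and 100 with median-of-ratios scaling). The match also took in genes annotated as tetratricopeptide-repeat-like, such as SDI1. Of 10 tested DNA methylation genes 5 were higher and none lower (4 and 1 with median-of-ratios scaling). Of 30 chromatin regulators of FLC, 19 were higher (63.3%) and 1 lower, with 10 (33.3%) and 2 under median-of-ratios scaling and no call. PIE1, a chromatin remodeller with the largest difference among them, stood at 6.67 and 6.83 FPKM in dd-2, against 4.34 and 5.76 FPKM in Col-0. Of 21 circadian clock genes 11 were higher and 2 lower (8 and 3), of 14 cytokinin genes 5 and 3 (5 and 5), of 18 cellulose and lignin genes 6 and 2 (4 and 4), and of 15 jasmonate genes 5 and 1 (2 and 1), with median-of-ratios counts in brackets. The higher shares were 52.4%, 35.7%, 33.3% and 33.3%, and 38.1%, 35.7%, 22.2% and 13.3% with median-of-ratios scaling. None of the 10 tested seed storage genes was separated, and the libraries of both genotypes overlapped.

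Loci under 300 bp were set apart, because few fragments set their values. Of 109 tested, 20 were higher and 14 lower, and 14 and 8 of these by 1.5-fold (12.8% and 7.34%). The 3 calls were at loci listed at 0 in some libraries. PSBL, a chloroplast gene for a small photosystem II subunit, was listed at 0 in both dd-2 libraries and in all 4 single-mutant libraries, against 47.6 and 72.7 FPKM in Col-0. AT3G49460, ribosomal-protein-like, was also listed at 0 in all 6 mutant libraries, against 5.79 and 4.40 FPKM in Col-0. AT5G27889 stood at 3.63 and 7.95 FPKM in dd-2 and 6.70 and 3.28 FPKM in dek3-2, and was listed at 0 in dek4-2 and Col-0. The adjusted p of these 3 were 1.52e-05, 9.25e-04 and 0.0360, and that of AT5G27889 was up to 0.158 with a library left out. No fold is given for them.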

How the data were processed

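Libraries of whole seedlings held 1 file each with FPKM per gene. The FPKM values were deposited by the authors, per the file headers, and the tools in the submitters' processing notes are featureCounts, HISAT2 and edgeR, with build TAIR10 and no versions. The program that wrote the FPKM and the use of strand in counting are not given in the sources used here, so overlapping and antisense genes are uncertain. The files hold no counts, and relative depth was read from the spacing of values under 0.3 FPKM.

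For 19074 genes averaging 1 FPKM or more in dd-2 and Col-0, limma 3.58.1 (R 4.3.3, variance trend, robust) was run on values transformed to log2(FPKM + 1). All 8 libraries entered with 1 mean per group, and p was adjusted by Benjamini-Hochberg and called below 0.05. Each log2 difference and fold threshold uses this transform, which understates low genes, while the fold given for BGLU30 is of mean FPKM. In gene groups, higher and lower mean that both dd-2 libraries lay beyond both Col-0 libraries, with no set test. Groups were 38 lists by locus code and 36 families by annotation words, of which the peroxidase, SAUR and lipid transfer families were corrected after values were seen. The members and lists were chosen with earlier results of these data known. Genes named were the DEK family, the 15 largest called differences per direction on loci of at least 300 bp, up to 4 separated members per list that averaged 2 FPKM or more where higher, and called short loci. Tissue markers were named as a check. PYK10, NAI1, BGLU21, BGLU22, SHR, SCR, CP12-3, RAB18, ERD14, ABF3, IAA17, NSP1, PHYB, CRY1 and the remaining calls were named after their values were seen. Promoter windows were the 250 bases before the RefSeq gene start (TAIR10.1), where 4 motifs were searched on both strands. Alternatives were other pseudocounts, filters, scalings, fits and left-out libraries, and organelle genes or short loci left out. Figures were drawn with matplotlib 3.10.9.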

Additional observations from a re-analysis of the deposited data

Results flagged for a closer look

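The 11 seed storage and oil body genes summed to 1850.0 FPKM in dek3-2 replicate 1, a library of neither dd-2 nor Col-0, against 6.29 and 7.85 FPKM in the Col-0 libraries. It was picked out because this signal lies above the control libraries in data that the comparison does not use. The sum was 22.1 FPKM in dek3-2 replicate 2 and 127.0 FPKM in dd-2 replicate 2. This library entered the estimate of the spread, and the fit on the 4 libraries of dd-2 and Col-0 alone called 20 genes.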

How the results depend on the processing

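No called gene reversed its direction in any alternative. Of 721 recomputed values of called genes, 431 stayed past the threshold and 290 did not. The 56 calls became 26 with no filter on low values, 110 without organelle genes, 20 in the fit on the 4 libraries alone, 35 without variance trend or robust estimation, and 16 to 38 with a library left out. With the replicate number as a block there were 344 calls (229 higher, 115 lower), which include all 56. The numbers were not taken to pair libraries, and a batch shared by replicate number was not tested. Across genes, the deviations of same-numbered libraries correlated at -0.0607 between dd-2 and Col-0. Over the 6 pairs of groups the correlations ran from -0.0607 to 0.291, with dek4-2 and Col-0 alone over 0.1. The chloroplast share was lower in replicate 1 than in replicate 2 in all 4 groups (1.43 and 1.79% in dd-2, 1.19 and 1.8% in Col-0). With median-of-ratios scaling, separated genes numbered 4334 higher and 4879 lower, and 160 were lower by 1.5-fold. At a mean of at least 5 FPKM, 282 were higher and 57 lower by 1.5-fold. With a library left out, separated genes numbered 9409 to 10152 higher and 4275 to 5426 lower, and 551 to 786 were higher and 132 to 197 lower by 1.5-fold, since fewer libraries make separation easier. Other causes were not tested. Of 608 recomputed list counts, 477 stayed within 1.5 times, 100 of the other 131 came from left-out libraries and 26 from median-of-ratios scaling. Depth is known only in relative terms, so no counting error is given, and low and short loci are the least certain.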

Other observations

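Iron and glucosinolate genes were not described above. Of all tested genes, 38.1% were higher and 15.2% lower, and 22.8% and 25.6% with median-of-ratios scaling. Of 15 iron genes, 1 was higher (6.67%) and 2 lower (13.3%) in dd-2. With median-of-ratios scaling 1 was higher (6.67%) and 5 lower (33.3%). BHLH101, a transcription factor of iron shortage, stood at 4.48 and 3.45 FPKM in dd-2, against 5.54 and 4.59 FPKM in Col-0 (log2 difference -0.29, limma adjusted p = 0.611). Of 27 glucosinolate genes, 5 were higher (18.5%) and 8 lower (29.6%), and with median-of-ratios scaling 2 were higher (7.41%) and 17 lower (63.0%). CYP79B2, which starts indole glucosinolate synthesis, stood at 27.5 and 33.6 FPKM in dd-2, against 37.6 and 38.4 FPKM in Col-0. Of 15 salicylate immunity genes, 3 were higher (20.0%) and 4 lower (26.7%). With median-of-ratios scaling 3 were higher (20.0%) and 6 lower (40.0%). ACD6 stood at 8.41 and 8.98 FPKM in dd-2, against 15.7 and 12.1 FPKM in Col-0 (log2 difference -0.61, adjusted p = 0.104). None of these genes passed the test over all genes.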
